A study of Mus musculus with 4 samples.

Results

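The places described here are 492 pairs of Sp6 intervals that overlapped between dental epithelium and dental mesenchyme of mouse molars and whose deposited signal was relatively strong in the epithelium. An interval is a region that the authors' peak caller found to hold a local excess of sequenced fragments, and its peak value is the fragment density in its highest bin. A pair was taken when the intervals overlapped by 1 bp or more, the mesenchyme peak value was under 100, and the epithelium peak value divided by the mesenchyme peak value was 0.67 or more. Of 2079 shared pairs with a peak value in both tissues, 507 (24.4%) reached that ratio, and of the 1684 pairs with a mesenchyme peak value under 100, 492 (29.2%) did. The pairs were thus chosen by their peak values, which are given below as a description with no test.

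Chromatin immunoprecipitation with sequencing (ChIP-seq) used 30 molars, taken from C57BL/6 mice at postnatal day 1, and an antibody to Sp6 produced in-house by the submitters. Epithelium and mesenchyme each gave 1 Sp6 library and 1 input library, which was not precipitated, from animals with no stated mutation or treatment. With 1 library per group there was no replicate error and no test between the tissues. Read totals were not known and scaling between libraries was not stated, so the ratio serves to rank pairs and is no measure of how much more Sp6 was bound. ChIP-seq does not measure expression, and the tissue labels could not be checked against marker transcripts.

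Sp6, also called epiprofin, belongs to the SP/KLF transcription factors, which carry zinc fingers and bind GC-rich boxes and related CACCC elements in DNA. In the tooth, the dental epithelium forms the ameloblasts that lay down enamel, and the dental mesenchyme forms the odontoblasts that lay down dentin. Mice that lack Sp6 have severe enamel and tooth defects.

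Few of the pairs had the epithelium peak centre close to a gene start. These are shown first because a promoter sequence can be printed beside most of them. In 6 pairs the epithelium peak centre lay between 250 bp upstream and 50 bp downstream of a listed start. For 5 of these genes the RefSeq promoter (build GRCm38.p6, 250 bases before to 50 bases after the start) is printed 5′ to 3′ on the gene's strand. The start listed on mm9 was taken to be the RefSeq start, which was not checked across builds. Capitals mark matches to any of 4 short motifs, searched on both strands. The GC box was searched as GGGCGG and the CACCC element of this family as CCACCC. The motif known as CCAAT was searched by those letters, and the TATA element was searched as TATAAA. The genes are Txnip, which encodes a thioredoxin-binding protein, Polg, the mitochondrial DNA polymerase, Amdhd2, an enzyme of amino sugar metabolism, Trim68, a ubiquitin ligase of the tripartite motif family, and Mmp20, the enamel matrix protease.
Mmp20 (chr9:7627981-7628280, + strand): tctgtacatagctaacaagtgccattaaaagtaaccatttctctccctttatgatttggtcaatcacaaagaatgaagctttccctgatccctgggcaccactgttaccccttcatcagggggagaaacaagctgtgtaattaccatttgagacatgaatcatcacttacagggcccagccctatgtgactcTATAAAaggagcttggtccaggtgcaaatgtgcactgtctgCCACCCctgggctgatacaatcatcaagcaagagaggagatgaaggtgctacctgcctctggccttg
Txnip (chr3:96557707-96558006, + strand): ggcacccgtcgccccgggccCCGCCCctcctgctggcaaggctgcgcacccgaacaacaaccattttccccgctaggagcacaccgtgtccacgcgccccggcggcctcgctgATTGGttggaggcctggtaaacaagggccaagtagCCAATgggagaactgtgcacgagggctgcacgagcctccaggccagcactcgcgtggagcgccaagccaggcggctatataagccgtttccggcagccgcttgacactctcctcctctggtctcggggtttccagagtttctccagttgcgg
Polg (chr7:79466224-79466523, - strand): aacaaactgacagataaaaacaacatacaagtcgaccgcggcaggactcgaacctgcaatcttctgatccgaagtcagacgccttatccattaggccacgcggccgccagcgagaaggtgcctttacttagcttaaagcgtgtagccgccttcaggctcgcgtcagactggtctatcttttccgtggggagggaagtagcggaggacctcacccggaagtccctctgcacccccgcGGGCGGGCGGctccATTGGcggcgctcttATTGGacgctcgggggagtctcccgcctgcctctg
Amdhd2 (chr17:24163684-24163983, - strand): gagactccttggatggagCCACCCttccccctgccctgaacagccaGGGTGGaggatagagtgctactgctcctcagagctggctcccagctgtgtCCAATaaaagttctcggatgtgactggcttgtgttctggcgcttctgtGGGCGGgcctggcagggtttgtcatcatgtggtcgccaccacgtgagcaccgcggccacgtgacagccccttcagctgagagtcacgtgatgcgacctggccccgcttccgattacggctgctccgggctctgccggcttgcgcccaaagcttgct
Trim68 (chr7:102687278-102687577, - strand): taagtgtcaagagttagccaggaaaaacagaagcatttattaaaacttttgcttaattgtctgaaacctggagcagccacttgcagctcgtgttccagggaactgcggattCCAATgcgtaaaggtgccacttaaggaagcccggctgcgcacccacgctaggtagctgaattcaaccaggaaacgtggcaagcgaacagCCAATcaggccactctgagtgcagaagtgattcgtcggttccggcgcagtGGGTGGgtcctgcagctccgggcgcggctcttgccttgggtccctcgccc

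A CCAAT box was present in 4 of the 5 promoters and in 37.4% of the 32851 RefSeq promoter entries, which have the same length. It also occurred in 10 of the 12 promoters of the same kind under all annotated shared pairs (83.3%, Wilson 95% interval 55.2 to 95.3%), which include these 5. A GC box was present in 3 of the 5, in 6 of the 12 and in 35.7% of RefSeq promoters. A CACCC box was present in 3 of the 5, in 4 of the 12 and in 31.5% of RefSeq promoters. The letters TATAAA were present in 1 of the 5, that of Mmp20, in 3 of the 12 and in 13.6% of RefSeq promoters. Other forms of the element, such as the letters TATATAAG in the Txnip promoter, were not searched. In Polg both GC boxes overlap each other. The 5 promoters are too few to be set apart from the 12. For the CCAAT box the interval of the 12 lay above the RefSeq share, and for the other motifs it held that share. No test was made, and a match of letters is not a binding site. The median GC content of the 5 was 59.3%, beside 59.2% over the 20 promoters of this kind under all annotated epithelium intervals, 52.7% over the 12 and 52.7% over all RefSeq promoters, and Mmp20 was the lowest of them at 46.7% with 0 CpG dinucleotides.

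At Txnip the peak values were 26 in epithelium and 28 in mesenchyme, with the epithelium centre 8 bp past the start. Polg had 20 and 16, and its centre was 201 bp upstream. At Amdhd2 they were 15 and 21, 4 bp upstream. Of these 3 starts only that of Polg had the higher value in epithelium. Trim68 had 20 and 27 at 232 bp upstream, and Mmp20 had 29 and 42 at 103 bp upstream. The sixth pair, listed for the unnamed transcript 3110054G05Rik and for Fmc1, had 40 and 42.

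Most of the 492 pairs had a lower deposited value in epithelium, despite the way they were chosen. The ratio of epithelium to mesenchyme peak value was above 1 in 112 pairs, exactly 1 in 14 and under 1 in 366. All 112 pairs above 1 among the annotated shared pairs (5.39% of 2079) were thus in the group. The median ratio was 0.833 (interquartile range 0.75 to 1, highest 1.71), beside 0.510 over all annotated shared pairs. A ratio of 1.5 or more was found in 8 pairs.

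The rule favours low mesenchyme values, so the strength of the group in each tissue is given as a description. Its epithelium peak values had a median of 29 (interquartile range 24 to 38, range 14 to 101), beside 29 over all annotated shared pairs and 25 over the 1192 other pairs with a mesenchyme value under 100. Its mesenchyme peak values had a median of 34 (27 to 45, range 16 to 99), beside 59 over all annotated shared pairs and 58 over the 1192 others. Within its own library the median pair stood at the 54.9th percentile of annotated epithelium intervals and at the 49.7th percentile of annotated mesenchyme intervals. For all annotated shared pairs these positions were 54.9 and 81.4, and for the 1192 others they were 41.1 and 80.7. An epithelium peak value of 50 or more was reached in 57 of the 492 pairs.

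The average value over an interval's bins comes from the same libraries and is no independent support. Its median was 13.3 in epithelium and 14.2 in mesenchyme for the group, and it was higher in epithelium in 195 pairs (39.6%). Of the 112 pairs with a peak ratio above 1, 90 also had the higher average value in epithelium.

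**Figure D1:**
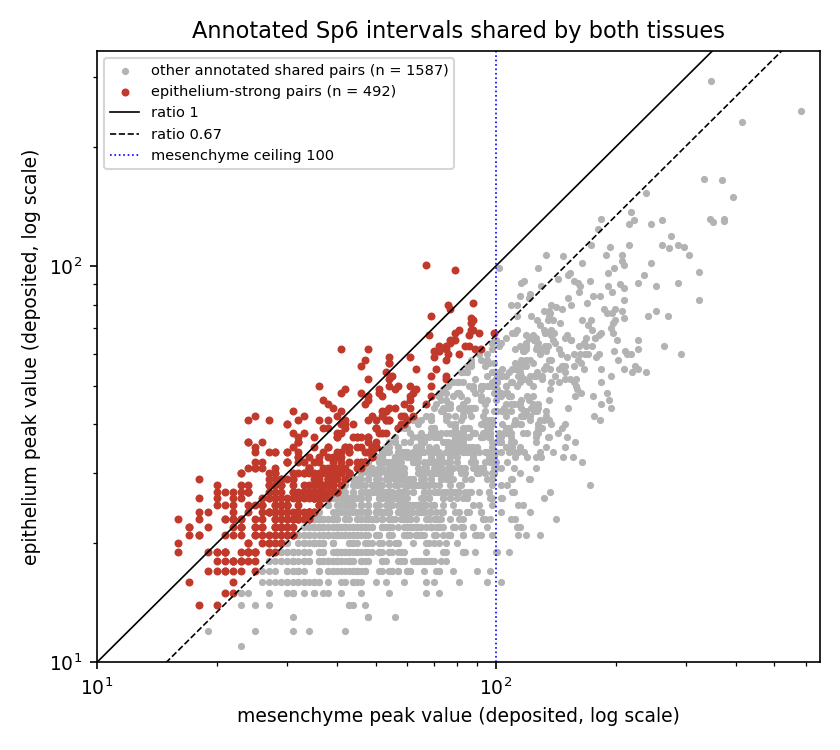
Each point is 1 of the 2079 annotated shared pairs, with the deposited mesenchyme peak value on the x axis and the deposited epithelium peak value on the y axis, both on log scales. The 492 selected pairs (red) lie above the dashed line of ratio 0.67 and left of the ceiling of 100, and 112 of them lie above the solid line of ratio 1.

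How many pairs qualified depended strongly on the mesenchyme value, which is the denominator of the ratio. With a mesenchyme peak value under 25, 86 of 92 pairs qualified (93.5%, Wilson 95% interval 86.5 to 97.0%). From 25 to 39 the share was 56.3% (51.5 to 60.9%, 238 of 423), from 40 to 59 it was 20.8% (17.6 to 24.3%), and from 80 to 99 it was 6.38% (3.91 to 10.3%, 15 of 235). The lowest epithelium peak value of any annotated pair was 11, so the 3 pairs with a mesenchyme value of 16 could not have had a ratio under 0.67.

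**Figure D2:**
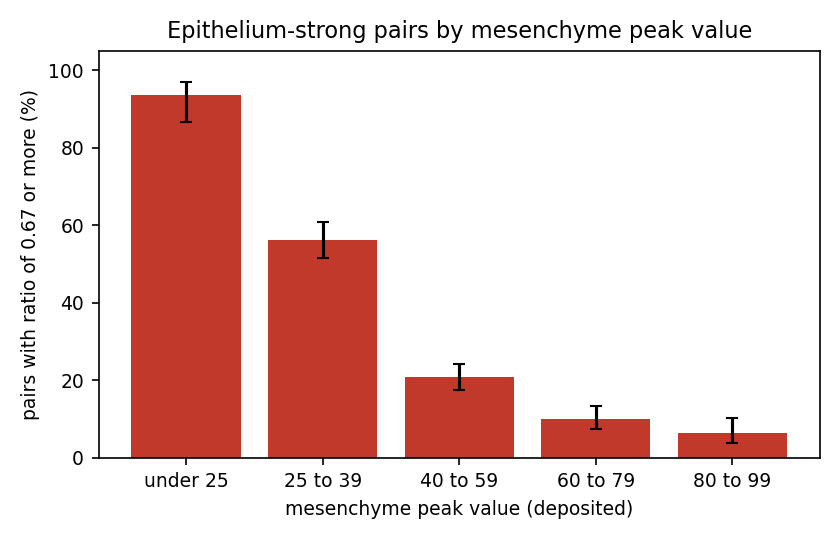
Bars give the share of annotated shared pairs with a ratio of 0.67 or more, in classes of deposited mesenchyme peak value, and error bars are Wilson 95% intervals. The share fell by class from 93.5% under 25 to 6.38% at 80 to 99, and the mesenchyme value is also the denominator of the ratio.

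At the limit of the ratio, the closest pairs inside were those of Dennd1a (45 and 67), Dok5 (33 and 49) and Slc39a11 (33 and 49), given as epithelium and mesenchyme peak values. Just outside were Tbl1xr1 (58 and 87), BC029169 (48 and 72) and Mboat2 (36 and 54), which are among 17 pairs left out at a ratio of exactly 2 to 3. At the ceiling, Camsap2 (68 and 99), Mink1 (62 and 92) and Rbfox1 (68 and 91) were the last inside. Necab1 (99 and 102), Pxylp1 (80 and 109) and Fras1 (80 and 113) were the first of 15 pairs that had the ratio but a mesenchyme value of 100 or more. Necab1 also had a pair inside the group, with 34 in epithelium and 27 in mesenchyme at 0.885 kb past its start. Members and their nearest outsiders thus differ little in their values.

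Among named genes, 10 of the 12 pairs with the highest ratios lay inside the gene. The highest was in Zfp704, a zinc-finger protein gene, 2.021 kb past its start (chr3:9607809-9608342 on mm9, epithelium interval), with 41 in epithelium and 24 in mesenchyme. In Plxna4, which encodes a plexin receptor for semaphorins, the peak values were 29 and 18 at 299.12 kb from the start. The other annotated shared pairs of Plxna4 were left out, with 37 and 83, 20 and 67, 63 and 162, and 51 and 115. Srgap1, a GTPase-activating protein of the Slit-Robo axon guidance pathway, had 41 and 27 at 189.513 kb. The selected pairs of Zfp704, Plxna4 and Srgap1 had ratios of 1.71, 1.61 and 1.52.

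Lhfp, the lipoma HMGIC fusion partner gene, had 62 and 41 at 8.131 kb inside the gene. Kidins220, a scaffold protein of neurotrophin signalling, and Ttc39b, a tetratricopeptide repeat protein gene, each had 36 and 24, at 71.979 and 24.813 kb inside the gene. One pair (chr5:23930017-23930562) lay upstream of Cdk5 by 0.892 kb and of Slc4a2 by 0.897 kb and was also listed for Asic3, with 26 and 18. Slc4a2 encodes an anion exchanger used in bicarbonate transport, Cdk5 a kinase best known from neurons, and Asic3 an acid-sensing ion channel. The ratio was 1.51 at Lhfp and 1.44 at the pair near Cdk5. Average values were 19.9 and 15.4 at Lhfp. At the pair near Cdk5 they were 10.9 and 11.8, and so lower in epithelium.

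Rsf1, a subunit of a chromatin remodelling complex, had 23 and 16 at 51.754 kb, but its average value was lower in epithelium (9.19 and 10.1). Pkhd1l1, a fibrocystin-like gene, had 35 and 25, and Slc7a8, an amino acid transporter gene, had 28 and 20. Btbd1, which encodes a BTB domain protein, had 50 and 36 in a pair lying 5.139 kb upstream. Peak values this low make a ratio coarse, since each is a small whole number, and no replicate was there to give its error.

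The highest epithelium peak value of the group, 101 beside 67 in mesenchyme, was listed for Sfi1, a centrosomal protein gene (chr11:3080619-3090774). It was an interval of another kind from the rest. It was 10156 bp long in epithelium and 16664 bp in mesenchyme, where the group's medians were 544.5 and 636 bp. Both inputs had intervals there, 4 in the epithelium input covering 9476 bp and 10 in the mesenchyme input covering 14314 bp. Only 1 other pair of the group touched an input interval, that of Agbl5, a tubulin-modifying carboxypeptidase gene, with 31 and 37 and a single mesenchyme input interval of 97 bp. The remaining 490 pairs touched none of the 17 epithelium and 24 mesenchyme input intervals.

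Away from the inputs, the strongest pair in epithelium lay in Epg5, an autophagy gene, with 98 in epithelium and 79 in mesenchyme at 64.026 kb from the start. The average values of the Epg5 pair, 49.4 and 38.6, were far above the group's medians of 13.3 and 14.2. The pair 6.951 kb upstream of Hnrnpr, an RNA-binding protein gene, and near Zfp46 had 81 and 88. Mipep, a mitochondrial peptidase gene, had 80 and 76 at 61.701 kb. The ratio floor and the ceiling hold the mesenchyme value near the epithelium value in pairs this strong. Nsf, the ATPase of vesicle fusion, had 78 and 77 at 13.354 kb, and Cadps2, which acts in dense-core vesicle release, had 75 and 69 at 113.332 kb. Zfp521, a zinc-finger transcription factor gene, had 74 and 87.

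Further strong pairs had a somewhat higher mesenchyme value. Capns2, a calpain subunit gene nested in Lpcat2, had 73 and 88, and Luc7l, a splicing factor gene, shared a pair with the pseudogene Hba-ps4 at 72 and 87. Pcolce2, an enhancer of procollagen processing, had 69 and 88, and Ptprk, a receptor tyrosine phosphatase gene, had 69 and 87. Camsap2, which encodes a protein that binds microtubule minus ends, had 68 and 99 at 30.745 kb. Serinc5 (68 and 79) and Rbfox1 (68 and 91) had the same epithelium value as Camsap2, and an unnamed transcript had 69 and 81. The peak value was higher in epithelium in 5 of the 12 pairs of named genes taken by epithelium value, Sfi1 included.

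**Figure D3:**
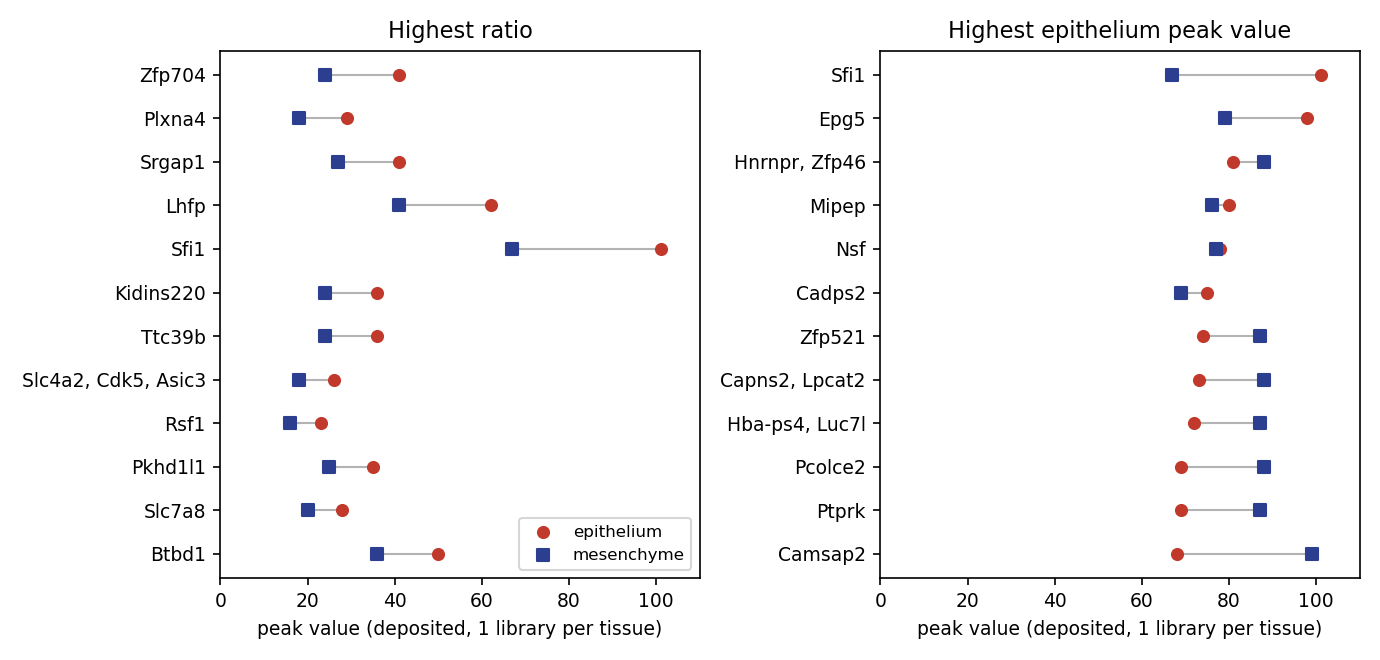
Deposited peak values in epithelium (red circles) and mesenchyme (blue squares), 1 library each, are shown for the 12 pairs of named genes with the highest ratio (left) and the 12 with the highest epithelium peak value (right). On the left epithelium values run from 23 at Rsf1 to 101 at Sfi1 and exceed mesenchyme in all 12, as the choice requires, while on the right they run from 68 to 101.

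Peak values were deposited only for intervals listed for a gene, from 10 kb upstream of its start to beyond its end, so all pairs lie in or near genes by construction. Among such pairs, position was not used to choose the group. Positions relative to genes were close to those of the other 1192 pairs with a mesenchyme value under 100, and the counting intervals overlapped for each share given next. Inside a gene body were 382 of 492 pairs (77.6%, Wilson 95% interval 73.8 to 81.1%), beside 77.3% (74.8 to 79.6%) of the other pairs. Upstream of genes only were 13.4% (10.7 to 16.7%) beside 14.5% (12.6 to 16.6%), and downstream only 8.94% (6.73 to 11.8%) beside 8.22% (6.79 to 9.92%).

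Within 5 kb of a listed start lay 92 pairs (18.7%, 15.5 to 22.4%), beside 21.1% (18.9 to 23.5%) of the other pairs. Within 1 kb there were 29 pairs (5.89%, 4.14 to 8.34%), beside 4.45% (3.42 to 5.77%). More than 50 kb from any listed start lay 177 pairs (36.0%, 31.9 to 40.3%), beside 34.5% (31.8 to 37.2%). The median distance to the nearest listed start was 26.7 kb for the group and 24.3 kb for the others. A higher or lower share of start-proximal places was thus not detectable at these numbers.

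**Figure D4:**
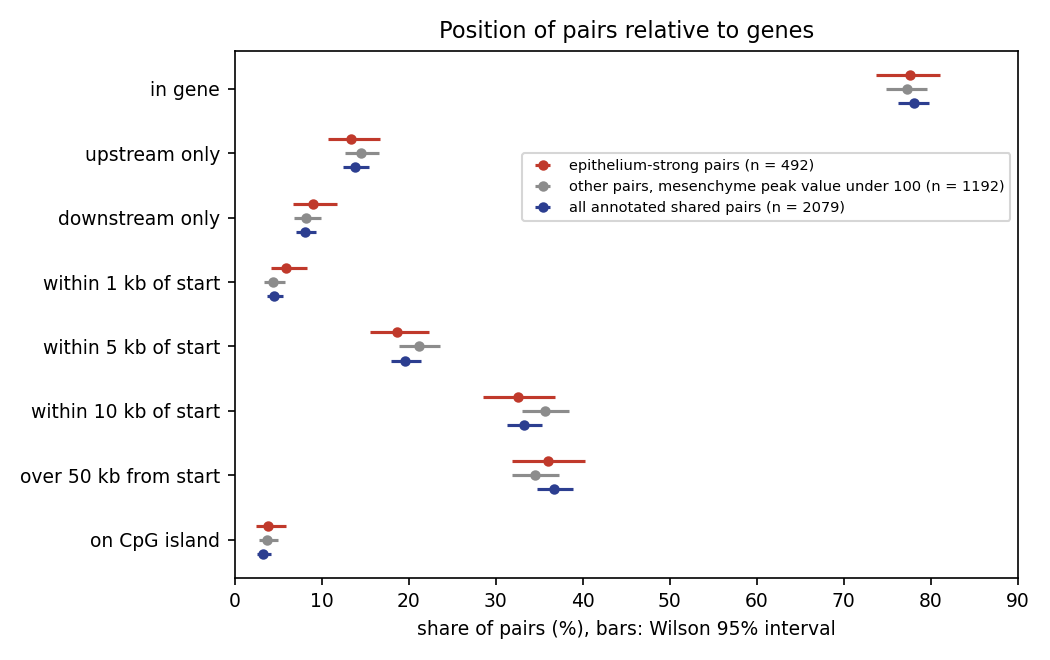
Points give the share of pairs with each position in the 492 selected pairs (red), the 1192 other pairs with a mesenchyme peak value under 100 (grey) and all 2079 annotated shared pairs (blue), and bars are Wilson 95% intervals for counting error. The 3 sets lie close together at every position, with 77.6%, 77.3% and 78.0% inside genes.

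The strongest pairs within 1 kb of a named gene's start were those of Arrdc3, Pik3ip1 and Mynn. A pair within 1 kb of the start of an unnamed transcript had 65 in epithelium and 79 in mesenchyme, and it was also listed for Acap1 and, at 2.748 kb from the start, for Kctd11, an adaptor of a ubiquitin ligase. Arrdc3, an arrestin-domain adaptor gene, had 63 and 84 at 0.827 kb upstream, and Pik3ip1, which encodes an inhibitor of PI3 kinase, had 63 and 86 at 0.398 kb upstream. Mynn, a zinc-finger protein gene, shared its pair with Actrt3, and there epithelium was the higher with 57 beside 54. Zfp27 had 37 and 45 at 0.909 kb upstream.

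CpG islands, CpG-rich stretches at many promoters, were held by 19 of the 492 epithelium intervals (3.86%, Wilson 95% interval 2.49 to 5.95%) and by 3.69% (2.76 to 4.92%) in the other pairs. Arrdc3, Agbl5 and Txnip were among these 19. Aurkb, a mitotic kinase gene, had 27 and 33 at 4.393 kb upstream, in a pair also listed for Ctc1. The divergent genes Cbx3, a heterochromatin protein gene, and Hnrnpa2b1, an RNA-binding protein gene, shared 26 and 27 at 0.053 kb past the Hnrnpa2b1 start. Cirbp, the cold-inducible RNA-binding protein gene, had 26 and 26 at 0.506 kb upstream, in a pair also listed for Midn and Fam174c. Aopep, an aminopeptidase gene, had 25 and 32 far inside the gene, and Gad1, which makes the transmitter GABA, had 25 and 29 at 2.211 kb. One further pair on a CpG island, listed for an unnamed transcript, had 37 and 46.

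Peak centres of both tissues coincided closely in most pairs. The centres were in the same bin in 134 pairs (27.2%), within 32 bp in 365 (74.2%) and within 100 bp in 464 (94.3%). In the other pairs under 100 the last share was 95.2%. The epithelium interval was the longer one in 102 pairs (20.7%, 17.4 to 24.5%), beside 143 of the 1192 others. Length and the number of peaks in an interval follow the signal that chose the pairs, so this difference is not independent of the rule.

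The group was spread over all chromosomes with Sp6 pairs. Among pairs with a mesenchyme value under 100 the share that qualified was highest on chromosome 11, with 45 of 115 (39.1%, 30.7 to 48.3%), and lowest on chromosome 1, with 29 of 119 (24.4%, 17.5 to 32.8%). On the X chromosome it was 8 of 24 (33.3%). The share over all chromosomes was 29.2%, within the interval of each except chromosome 11. With 20 chromosomes looked at and no test, chromosome 11 is given as a value only.

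Enamel genes had selected pairs at 7 of the 14 genes that had any annotated shared pair, among them Mmp20, Amelx, Ambn and Enam. Of 1954 gene names listed for an annotated shared pair, 543 (27.8%) were listed for a selected pair. The list held 26 genes of enamel matrix and maturation. Counted as pairs, 8 of its 22 annotated pairs were selected, a share of 36.4% beside 23.7% (492 of 2079) of all annotated shared pairs. The median ratio of the 22 pairs was 0.551, beside 0.510 over all annotated shared pairs. No test of this list was made, and counts this small cannot be told from the share of all annotated shared pairs.

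Mmp20 was the enamel gene with both of its pairs selected. Inside the gene, 9.369 kb from the start (chr9:7637307-7637966), the peak value was 45 in epithelium and 38 in mesenchyme, and at the promoter printed above it was 29 and 42. Epithelium was the higher at the internal place and the lower at the promoter. Relt, a TNF receptor family gene that is mutated in human enamel defects, had its 1 pair selected, with 39 and 50 at 8.421 kb inside the gene.

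Slc4a2, described above, had its 1 pair selected, and the other enamel genes held selected and other pairs. Amelx, the amelogenin gene that lies within Arhgap6 on the X chromosome, had 28 and 31 in the selected pair (chrX:165616617-165617487), 8.213 kb from the Amelx start. In that pair the epithelium and mesenchyme peak centres lay 960 bp apart, in intervals of 871 and 2607 bp. The other 3 pairs of Amelx had 15 and 30, 17 and 28, and 20 and 35. The selected pair thus had the highest epithelium value of the 4. Stim1, a calcium sensor of store-operated calcium entry, had 28 and 39 at 145.518 kb and, in the pair left out, 29 and 62 at 113.614 kb.

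Ambn, which encodes ameloblastin, had its selected pair downstream, 18.74 kb from the start, with 24 and 34, while the pair 0.172 kb upstream of the start had 42 and 93. Enam, the enamelin gene, likewise had its selected pair downstream, 18.6 kb from the start, with 21 and 22. The epithelium and mesenchyme peak centres of that downstream pair lay 752 bp apart, in intervals of 670 and 2256 bp. The Enam pair 0.136 kb upstream of the start had 33 and 51, a ratio of 0.647. At both genes the pair at the start had the higher values in both tissues and the lower ratio.

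WNT pathway genes, which carry signals between the dental tissues, had selected pairs at 7 of the 15 genes with an annotated shared pair. As pairs, 8 of 22 were selected (36.4%, beside 23.7% of all annotated shared pairs), with a list median ratio of 0.559. This list was not tested either, and its counts are likewise too small to be told from that share. Among receptors, Lgr4, an R-spondin receptor, had 46 and 37 at 19.444 kb and 34 and 32 at 50.404 kb, both above 1, while its other pair at 53.364 kb had 73 and 173. The places at 50.404 and 53.364 kb thus lay close together with ratios of 1.06 and 0.422. Lrp6, a WNT co-receptor, had 24 and 27 at 12.064 kb.

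Of the ligands, Wnt3a had 31 and 46 downstream of the gene, 48.029 kb from its start, and its other pairs inside the gene had 20 and 44, and 20 and 37. Znrf3, a ubiquitin ligase that removes WNT receptors, had 27 and 31. Apc, a scaffold of beta-catenin destruction, had 23 and 34 at 6.37 kb and 35 and 87 at 88.29 kb, where only the first was selected. For the nuclear effectors, Tcf7l2 had 22 and 23 at 91.097 kb beside 25 and 60 at 167.049 kb, and Lef1 had 19 and 24. The selected pairs of Apc and Tcf7l2 were thus the weaker ones of each gene in both tissues.

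**Figure D5:**
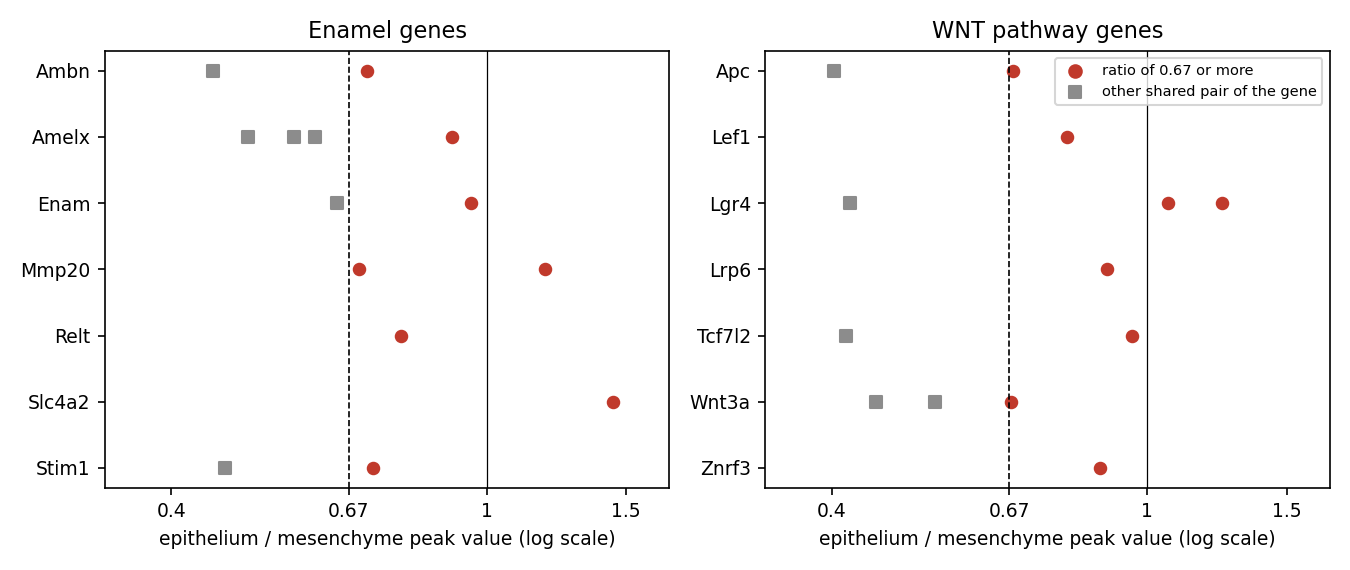
Each symbol is 1 annotated shared pair of an enamel gene (left) or WNT pathway gene (right) that has a selected pair, placed by its ratio of epithelium to mesenchyme peak value on a log scale, with red circles for selected pairs and grey squares for the gene's other pairs. The dashed line marks 0.67 and the solid line 1. Mmp20 (1.18), Slc4a2 (1.44) and Lgr4 (1.24 and 1.06) lie to the right of 1, and the pairs that were not selected lie below 0.67, down to 0.402 at Apc.

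Lists of dental mesenchyme had few or no selected pairs, though the number of their shared pairs was small. The mesenchyme transcription factors had annotated pairs at 6 genes and none selected (0 of 8 pairs, median ratio 0.389). The mesenchymal matrix genes had 0 of 7 pairs (median ratio 0.5), also over 6 genes. Of the dentin genes, 1 of 7 with a pair was selected, Runx2, an osteogenic transcription factor, with 27 and 33 at 146.6 kb. Hedgehog genes had 0 of 6 pairs, the SP and KLF family 0 of 3 and Notch genes 0 of 2. Of all annotated shared pairs 23.7% were selected, and counts this small cannot be told from that share.

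In the dental epithelium, the transcription factors had 2 of 4 genes selected (2 of 7 pairs), Satb1 and Lef1. Satb1, a chromatin organiser, had 35 in both tissues at 82.95 kb, while the pairs left out had 60 and 168, and 26 and 46. Junction genes had 2 of 9 selected (2 of 10 pairs, 20%). Tjp1, a tight junction scaffold, had 47 and 48 at 5.027 kb upstream, and Pkp1, a desmosomal plakophilin, had 38 and 40 at 18.017 kb. Their ratios were 0.979 and 0.95, where the rule requires 0.67 or more. Over all pairs of each list the median ratio was 0.4125 for the transcription factors and 0.475 for the junction genes. Both medians lay below the 0.510 of all annotated shared pairs. Counts this small cannot be told from the 23.7% of all annotated shared pairs that were selected.

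Of 12 BMP and TGF-beta genes with a pair, 3 had a selected one. As pairs these were 3 of 18 (16.7%), beside 23.7% of all annotated shared pairs. Smad3, a TGF-beta effector, had 28 and 27 at 89.161 kb. Bambi, a decoy receptor, had 24 and 28 upstream at 8.771 kb, while the pair inside the gene had 64 and 141. Smad7, an inhibitor of the pathway, had 20 and 24 at 18.949 kb. In Bambi the stronger pair near the start was therefore not the selected one.

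In the ectodysplasin and NF-kB list 2 of 3 genes were selected (2 of 4 pairs). Of all gene names with an annotated shared pair 27.8% were selected, and counts this small cannot be told from that share. Tnfrsf19, a receptor of the TNF receptor family, had 47 and 61 at 31.866 kb and, left out, 26 and 97 at 61.53 kb. Nfkb1 had 26 and 27 at 6.993 kb upstream. Fgf1, the one selected FGF gene of 2 with a pair, had 38 and 31 downstream and, left out, 25 and 43 inside the gene. The ratio was 1.23 at the selected pair of Fgf1 and 0.963 at Nfkb1.

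Axon guidance genes had 5 of 37 pairs selected (13.5%) and neuronal adhesion genes 6 of 30 (20%). The share over all annotated shared pairs was 23.7%. Besides Plxna4, Efna5, an ephrin, had 28 and 23 at 97.066 kb, with 62 and 98 and 35 and 53 in its pairs left out. Robo2, a Slit receptor gene, had 39 and 50, Ntn4, a netrin gene, 27 and 31, and Sema5a, a semaphorin gene, 18 and 24. Robo2 also had 99 and 198 in a pair left out. The pairs of Sema5a left out had 42 and 79, 96 and 154, 24 and 43, and 34 and 62. Rbfox1, a splicing regulator, had 68 and 91 at 918.621 kb and 25 and 24 at 452.029 kb. Rbfox1 also had a pair left out, with 42 and 106 at 1462.525 kb.

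Dlgap2, a postsynaptic scaffold gene, had 34 and 30, and Csmd1, a large membrane protein gene, 29 and 27. Ptprd, a receptor phosphatase gene, had 23 and 31 and Cntnap2, a contactin-associated protein gene, 20 and 27. Among selected pairs, epithelium was the higher in Dlgap2 and Csmd1 and in the weaker of the 2 selected Rbfox1 pairs. Pairs left out had 28 and 45 in Dlgap2, 25 and 64 in Ptprd, and 32 and 87 in Cntnap2.

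Other lists had 1 or 2 genes with a selected pair. Chromatin regulators had 2 of 10 genes selected, Arid1a, a BAF complex subunit, with 40 and 59, and Satb1. Maf, a transcription factor of the AP-1 superfamily, had 23 and 22 at 0.886 kb upstream. Aurkb was the one cell cycle gene and Arhgap6 the one cytoskeletal gene, the latter through the pair it shares with Amelx. In the lists for other cell types, Flt1 (41 and 60) and Pecam1 (30 and 34) of the endothelium and blood list had a selected pair. Gap43 (19 and 25), which was placed in the list of glia and Schwann cells, also had a selected pair. These were 2 of 2 endothelium and blood genes and 1 of 1 glia genes with any annotated shared pair, from lists of 22 and 13 genes. Over all gene names with an annotated shared pair the share selected was 27.8%. Counts of 1 or 2 genes are too few to set any of these lists apart. Over all 21 lists, 43 of 204 annotated pairs were selected (21.1%), beside 23.7% of all annotated shared pairs. They lay at 41 of 137 genes.

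Some genes held several selected pairs. Leaving out unnamed transcripts, 485 genes had a selected pair. Of these, 343 had no other annotated shared pair, and 142 had 2 or more. Of the 142, 27 had 2 or more selected pairs. Among the 142, all annotated pairs were selected in 17 genes, and in 125 genes selected and other pairs were mixed. In 100 of the 125 genes each selected pair had a lower mesenchyme peak value than every other pair of the gene, and in 54 the highest epithelium value was that of a selected pair. Both counts follow in part from the ratio, in which the epithelium value is the numerator and the mesenchyme value the denominator.

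A set of 5 genes had 3 selected pairs each. Tle4, a Groucho-family co-repressor, had 19 and 21 at 0.519 kb upstream, 28 and 29 at 38.617 kb inside the gene, and 24 and 34 at 39.049 kb. Ttc39b had 61 and 72 at 56.749 kb and 18 and 25 at 15.005 kb in addition to the pair with a ratio of 1.5. In these 2 genes no other annotated pair was present, so all were selected.

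Lrrc1, a leucine-rich repeat scaffold gene, had 59 and 70 downstream of the gene, 58 and 75 at 5.562 kb and 24 and 32 at 79.994 kb, and 1 pair left out (16 and 31). Myo10, an unconventional myosin of filopodia, had 55 and 63, 30 and 32, and 18 and 23, and 1 pair left out (21 and 51). Frmd4b, a FERM domain scaffold gene, had 23 and 21 at 2.583 kb, 19 and 25 at 1.591 kb and 30 and 41 downstream. Its 3 pairs left out had 24 and 122, 60 and 171, and 45 and 76. Frmd4b thus held pairs with ratios from 0.197 to 1.10. Nsf had a second selected pair with 35 and 50 at 68.074 kb.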

How the data were processed

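Sp6 ChIP-seq was analysed in 4 libraries, 1 Sp6 and 1 input library for each tissue, grouped by sample title. The submitters' processing notes name MACS 1.3.7.1 and the mm9 build. For the aligner, calling thresholds, scaling and use of inputs, nothing is given in the sources used here. The authors deposited interval positions for each library and, for each Sp6 library, a table with signal (the peak value and the average value of fragment density per interval), lengths, CpG islands and nearby genes, from 10 kb upstream of the start to beyond the gene's end. The depth is unknown. Distances run from the peak centre to the gene start, which gave one start per gene in 1278 of 1278 genes with 3 or more listed intervals. Coordinates are on mm9, counted from 1.

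Each epithelium interval was paired with the mesenchyme interval of largest overlap. Of 3350 shared epithelium intervals, 1271 lacked a peak value in at least 1 tissue and were left out, so 2079 pairs were used. Deposited gene names were set to current symbols through RefSeq symbols and synonyms (GRCm38.p6), and 491 of 543 names of the group matched. Wilson 95% intervals of shares were computed from the counts of pairs and hold no other error. Pairing was tested on simulated data. Python 3.11.15, pandas 2.3.3 and scipy 1.17.1 were used.

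The pairs and the 21 gene lists were chosen with earlier results of these data known. Genes named are the 12 pairs of highest ratio, the 12 of highest epithelium value, up to 5 genes per list, the 8 strongest within 1 kb of a start and on CpG islands, the pairs at the limits and the 6 genes with most pairs. Txnip, Serinc5, Polg, Amdhd2, Trim68, Fmc1, Ambn, Enam, Tcf7l2 and the left-out pairs of named genes were added after their values were seen.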

Additional observations from a re-analysis of the deposited data

How the results depend on the processing

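There were no replicates to leave out, and the deposited files give no read totals, so the error of a ratio is unknown. No paired analysis was possible because each group had 1 library. Of 73 values under alternatives, 59 stayed within 1.5 times a count or within the counting interval of a share or median. Requiring an overlap of 50% of the shorter interval, or one pair per mesenchyme interval, left the same 492 pairs. The values under these settings were thus unchanged, and they are counted among the 59. Without pairs on input intervals 490 remained. With the average value in the ratio, 967 pairs qualified, among them 484 of the 492 (98.4% of these, 50.1% of the 967), with a median epithelium length of 531 bp, a median mesenchyme length of 672 bp and 82 list genes in place of 41. A ratio of 0.8 gave 294 pairs and 27 list genes. A ratio of 1 gave 126 pairs, 12 list genes, a median mesenchyme length of 608 bp and 23.0% within 5 kb of a start. These counts changed because the limit did. With epithelium values of 25 or more, the median epithelium length was 563.5 bp, and with a difference of percentile ranks it was 562.5 bp, where 414 of the 492 pairs (84.1%) were in both selections. Windows of 1 kb and 10 kb held 5.89% and 32.5% of pairs.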
